A study of Mus musculus with 33 samples.

Results

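Peaks of p53 were examined at the 3 genes of the p53 family, Trp53, Trp63 and Trp73, and at Cdkn2a, the locus that encodes the p53 activator Arf. The members were chosen by position, as the peaks overlapping 4 windows of the mouse build mm9. These were chromosome 11 from 69380000 to 69420000 for Trp53, chromosome 16 from 25660000 to 25910000 for Trp63, chromosome 4 from 153410000 to 153530000 for Trp73 and chromosome 4 from 88900000 to 88960000 for Cdkn2a. They held 62 of the 102916 peaks in 26 lists, which formed 9 of the 18927 sites of the series. A site is a run of peaks, from any of the lists, that share at least 1 bp. It may hold several peaks of 1 list and still counts once.

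The assay was ChIP-seq, in which DNA bound by a protein is recovered with an antibody and sequenced, here with the p53 antibody CM5p and lymphoma cells from lymph nodes of C57/Bl6 Eµ-myc mice, in which an immunoglobulin enhancer drives the Myc oncogene in the B lineage. Tumours 1 to 4 carried 1 knock-in (KI) and 1 deleted Trp53 allele, Trp53(KI/delta), and were treated for 2 h with 100 nM OHT (4-hydroxytamoxifen) or with 1 volume per 1000 of the solvent EtOH. Tumours 5 to 7 were Arf-/- Trp53+/+ and were sampled untreated or after 3 h with water (1 volume per 1000), DMSO (0.5 volumes per 1000), 5 µM (+)-Nutlin, 5 µM (-)-Nutlin or 1 µM doxorubicin. The lymph node cells were not purified further, and peak positions hold no marker level by which their type could be checked. Each library gave 1 list, so that there were 4 lists each of EtOH and OHT and 3 lists of every other group. The question at these loci was whether p53 has called sites at its own gene, at its relatives and at the locus of its upstream activator, and under which treatment. The engineered alleles lie within the examined loci. The Trp53 locus was altered in tumours 1 to 4, and the Cdkn2a locus, which holds Arf, in tumours 5 to 7. Their part in the results below was not tested.

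In background, p53 is a transcription factor that binds DNA as a tetramer and halts the cell cycle or triggers apoptosis under stress. Mdm2 binds p53 and targets it for degradation. Arf, made from an alternative reading frame of Cdkn2a, blocks Mdm2, while Ink4a, the other product of Cdkn2a, inhibits the kinases that drive entry into S phase. The relatives p63 and p73 share the DNA-binding domain of p53 and are known for roles in epithelial and neural development. In the KI allele, p53 is fused to a hormone-binding domain that answers to OHT. Doxorubicin damages DNA, and (-)-Nutlin blocks the binding of p53 to Mdm2, which its mirror-image form (+)-Nutlin does not do effectively.

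RefSeq promoters (250 bases before to 50 after a start, build GRCm38.p6) were at hand for 3 of the 4 genes and are shown for Trp53 and Cdkn2a, whose windows held the most sites. Capitals mark a p53 half-site, a match to the motif RRRCWWGYYY of 10 bases that occurs in pairs in full p53 sites. R stands for A or G, W for A or T and Y for C or T. The motif, though not each match to it, reads the same on both strands. The Trp53 promoter held 1 half-site, ending 65 bases before the start, and neither promoter of Cdkn2a held one. Half-sites were present in 8.36% of the 32851 RefSeq promoters of the same length that were searched, a set that left out 1 chromosome. Neither of the promoters of Trp73 held one. The peaks are in mm9 and the promoters in GRCm38, so their positions were not compared, and no distance from a peak to a start is given.
Trp53 (chr11:69580109-69580408, plus strand): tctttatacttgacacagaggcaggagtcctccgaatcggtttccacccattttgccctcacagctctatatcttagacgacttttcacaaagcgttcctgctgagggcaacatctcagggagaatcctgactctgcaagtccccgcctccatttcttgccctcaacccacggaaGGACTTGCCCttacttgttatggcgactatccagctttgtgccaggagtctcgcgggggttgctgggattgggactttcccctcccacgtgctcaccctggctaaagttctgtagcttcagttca
Cdkn2a (chr4:89282143-89282442, minus strand): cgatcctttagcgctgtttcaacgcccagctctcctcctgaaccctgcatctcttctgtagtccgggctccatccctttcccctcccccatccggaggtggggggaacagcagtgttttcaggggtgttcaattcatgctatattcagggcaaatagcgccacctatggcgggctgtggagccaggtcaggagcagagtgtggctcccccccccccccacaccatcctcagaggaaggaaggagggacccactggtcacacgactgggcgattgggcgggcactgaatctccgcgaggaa
Cdkn2a (chr4:89294570-89294869, minus strand): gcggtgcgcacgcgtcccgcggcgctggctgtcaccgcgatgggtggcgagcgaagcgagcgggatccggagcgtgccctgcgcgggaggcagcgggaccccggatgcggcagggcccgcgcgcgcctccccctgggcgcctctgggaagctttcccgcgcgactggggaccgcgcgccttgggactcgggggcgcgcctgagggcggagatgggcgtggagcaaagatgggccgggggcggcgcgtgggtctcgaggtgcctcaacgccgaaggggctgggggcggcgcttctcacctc

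The lists differed in length and in peak width, which bears on every count below. EtOH lists held 116 to 742 peaks, OHT lists 3597 to 10084, doxorubicin and (-)-Nutlin lists 5617 to 11346, and the 12 other Arf lists 707 to 2696. In 12 narrow lists the median peak was 68 to 111 bp wide, and in 14 wide lists 417 to 552 bp. Narrow lists were those of EtOH and, in tumours 6 and 7, of every condition but doxorubicin and (-)-Nutlin. Tumour 5 had wide lists throughout. Treatment and kind of list therefore cannot be told apart in KI tumours, and are separable in tumour 5 alone. A list without a peak shows that none was called at its depth, which is unknown here, and not that p53 was absent. No 2 lists shared more than 0.862% of the peaks of the shorter list at identical coordinates.

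Sites at the Trp53 locus were called after every activating treatment. All 3 sites of the window lay within 3 kb, on chromosome 11 from 69392552 to 69393185 (Trp53 site 1), from 69393350 to 69394150 (Trp53 site 2) and from 69394603 to 69395290 (Trp53 site 3), with 164 bp and 452 bp between them. Site 2 had a peak in 15 of the 26 lists, among them all 10 lists of OHT, doxorubicin and (-)-Nutlin, here called activated. Sites 1 and 3 had a peak in 6 and 7 lists, all of them activated. Across the series, 62.5% of sites had a peak in 3 or more lists, 5.76% in all 10 activated lists and 77.3% in activated lists alone. The map of peaks at Trp53 shows the order of the sites and their extent in each list.

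**Figure D1:**
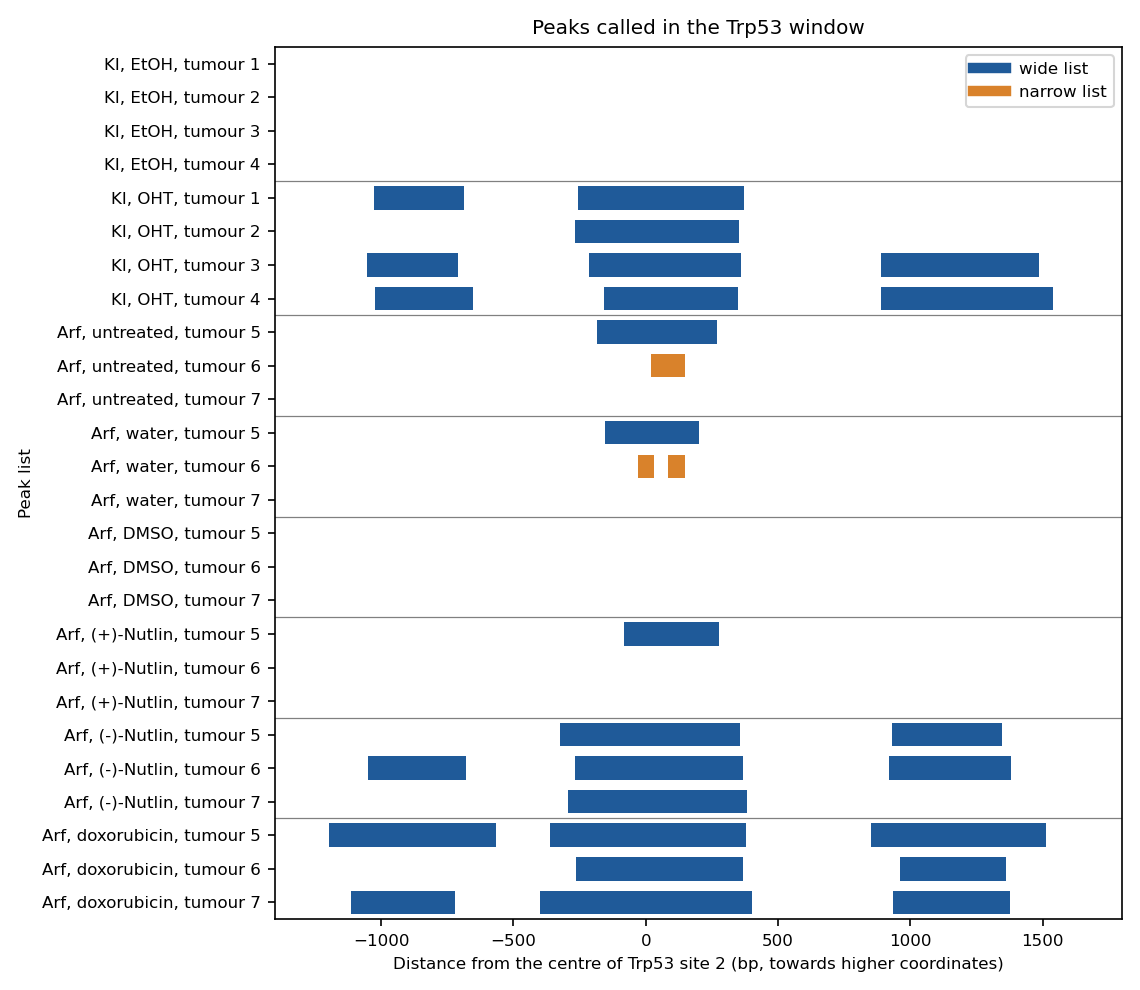
Peaks called in the Trp53 window, drawn to scale as distance in bp from the centre of Trp53 site 2 (x axis), with 1 row for each of the 26 lists (y axis) and colour for the kind of list. Site 2 has a peak in all 10 OHT, (-)-Nutlin and doxorubicin lists, and no EtOH or DMSO list has a peak at any of the 3 sites.

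At Trp53 site 2, peaks after OHT were 625, 618, 574 and 505 bp wide in tumours 1, 2, 3 and 4. Those of the doxorubicin lists were 741, 631 and 801 bp wide in tumours 5, 6 and 7, and those of the (-)-Nutlin lists 680, 635 and 680 bp. In each of these 10 lists the peak was wider than 64.2% to 85.9% of the peaks of its list, or as wide. Untreated cells had peaks of 454 bp in tumour 5 and 128 bp in tumour 6, and water-treated cells 1 of 355 bp in tumour 5 and a pair of 61 and 63 bp in tumour 6. With (+)-Nutlin there was 1 peak, of 357 bp in tumour 5. No EtOH list, no DMSO list and no list of tumour 7 other than those of doxorubicin and (-)-Nutlin had a peak there. The widths of activated lists, 505 to 801 bp, thus lay above all those of the 5 other lists with a peak. All 10 activated lists were wide lists, whereas 2 of these 5 were narrow lists. The share of all sites with such a separation was not counted, so it is not particular to this site as far as is known. The peaks of 355 bp with water and 357 bp with (+)-Nutlin in tumour 5 had the smallest width of their lists.

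Trp53 sites 1 and 3 were called less regularly among the activated lists. Site 1 had peaks of 340, 344 and 367 bp after OHT in tumours 1, 3 and 4, of 634 and 394 bp after doxorubicin in tumours 5 and 7, and of 373 bp after (-)-Nutlin in tumour 6. Site 3 had peaks of 600 and 652 bp after OHT in tumours 3 and 4, of 661, 400 and 442 bp after doxorubicin in tumours 5, 6 and 7, and of 413 and 462 bp after (-)-Nutlin in tumours 5 and 6. Tumour 2 was the KI tumour with neither of these sites, and its OHT list was the shortest of the 4, with 3597 peaks. The (-)-Nutlin list of tumour 7 held site 2 alone and was the shortest of the 6 doxorubicin and (-)-Nutlin lists, with 5617 peaks. Longer lists also lacked site 1, those of (-)-Nutlin in tumour 5 (10503 peaks) and doxorubicin in tumour 6 (8250 peaks). The OHT list of tumour 1 had it with 4102 peaks. The part of list length was not tested. Site 1 peaks were mostly narrow for their lists. Their width percentiles were 11.7, 6.94 and 24.1 after OHT in tumours 1, 3 and 4, 36.3 after (-)-Nutlin in tumour 6, and 72.0 and 9.38 after doxorubicin in tumours 5 and 7.

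Restoring p53 with OHT was followed by called sites at Trp53 in every KI tumour. OHT lists held 2, 1, 3 and 3 of the Trp53 sites in tumours 1, 2, 3 and 4, and EtOH lists held 0 in each. The mean was 2.25 ± 0.96 sites (SD, n = 4) against 0, and the two-sided exact permutation p was 0.0286. No design of 4 against 4 lists can give less. Exchanging labels within tumours gave an exact p of 0.125, also the floor of that test. The paired 95% interval of the difference ran from 0.73 to 3.77 sites. With peaks within 500 bp joined, which makes the 3 sites 1, the difference was 1.00. Of all consecutive windows of the same length with a site in KI lists, 14.0% passed the same unadjusted test, which is 1304 windows. Site by site, Trp53 site 2 had a peak in every OHT list and no EtOH list, as did 9.31% of the 12799 regions of this comparison and 2 of the 9 in the 4 windows, the other being Cdkn2a site 5. Across all merged regions, 8.61% had a peak in all 4 OHT lists. The adjusted p of Trp53 site 2 was 0.307 in Fisher's exact test over all regions, which called 0 regions at 0.05, with 1191 at an unadjusted p under 0.05.

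In Arf tumours, more separate Trp53 sites were also called with doxorubicin and (-)-Nutlin than with their solvents, by differences that these small groups cannot carry past 0.05. Doxorubicin lists held 3, 2 and 3 sites in tumours 5, 6 and 7, and water lists 1, 1 and 0. The difference was 2.00 sites (p = 0.1 by exact permutation, the least that 3 against 3 lists can give). (-)-Nutlin lists held 2, 3 and 1 sites and DMSO lists 0 in each tumour, again a difference of 2.00 sites with an exact permutation p of 0.1. Lists of doxorubicin and (-)-Nutlin were longer, with 5617 to 11346 peaks against 858 to 2206 for water and 892 to 1694 for DMSO. The share of windows of this length without overlap between such groups was not counted. By separate sites neither pair of groups overlapped. By number of peaks, doxorubicin (3, 2 and 3) and water (1, 2 and 0) did, with p = 0.2 by exact permutation, and with peaks within 500 bp joined their difference was 0.33 sites (exact permutation p = 1). That of (-)-Nutlin and DMSO was then 1.00. Trp53 site 3 had a peak in every doxorubicin list and no water list, a pattern of 18.1% of 15038 regions. Trp53 site 2 had a peak in every (-)-Nutlin list and no DMSO list, a pattern of 27.9% of 12661 regions, while the reverse was seen at 0.00790% of them and at 0 of the 8 in the 4 windows. Fisher's exact test called 0 regions in either comparison, and 0 had an unadjusted p under 0.05, which 3 against 3 lists cannot give.

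Taking doxorubicin and (-)-Nutlin together gave 6 lists against the 12 other lists of the same 3 tumours. The Trp53 window held 2.33 ± 0.82 sites (SD, n = 6) against 0.42 ± 0.51 (SD, n = 12). The exact permutation p was 0.000323, and 0.000296 with labels exchanged within tumours, where it is the smallest possible. The difference of the means was 1.92 sites, and activated lists held more sites on average in 3 of 3 tumours. Among consecutive windows of the same length with a site, 61.2% passed this test, so the Trp53 window shared this difference with most such windows. Trp53 site 3 had a peak in 5 of 6 activated and 0 of 12 other lists, with an adjusted p of 0.00453 in Fisher's exact test over 17143 regions, which called 34.6% of them as more often bound in activated lists and 0.0175% as less often bound. It was the 1 region called of the 8 in the 4 windows. At an unadjusted p under 0.05, 4 of the 8 passed against 49.6% of all regions. A peak in all 6 activated and no other list was found at 0 of the 8 and at 4.29% of all regions. Sites 1 and 2 did not pass, with adjusted p of 0.0512 and 0.0768 by the same test. Lists of 1 tumour share its cells, and without tumour 5 or tumour 6 the adjusted p of site 3 became 0.0627 and 0.0518. With sites joined across gaps of up to 500 bp, the window difference was 0.58 sites (exact permutation p = 0.0377) and the adjusted p of the joined site 0.0753. Among peaks of at least the median width the call moved from site 3 (2 of 6 against 0 of 12 lists, adjusted p = 0.153 by Fisher's exact test) to site 2 (6 of 6 against 0 of 12, adjusted p = 0.00182).

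The mirror-image Nutlins were compared at the same dose and time. At Trp53, (-)-Nutlin lists held 2, 3 and 1 sites and (+)-Nutlin lists 1, 0 and 0, a difference of 1.67 sites (paired 95% interval from -1.20 to 4.54, exact permutation p = 0.2). (+)-Nutlin and DMSO differed by 0.33 sites, with an interval from -1.10 to 1.77 and p = 1 by exact permutation. At Cdkn2a the corresponding differences were 1.67 sites, with an exact permutation p of 0.2 and an interval from -1.20 to 4.54, and -0.33 sites, with an exact permutation p of 1 and an interval from -1.77 to 1.10. The (-)-Nutlin lists had more sites than the (+)-Nutlin lists in 3 of 3 tumours at both loci. They were also longer, with 5617 to 10674 peaks against 707 to 2351. How many other windows share this direction was not counted, so it is not particular to these loci as far as is known. With 3 tumours neither a difference nor its absence could be established. Of the 12660 regions called under either Nutlin, 23.6% had a peak in every (-)-Nutlin list and no (+)-Nutlin list, and 0 of the 8 in these windows did. The reverse was found at 0.00790% of them and again at 0 of the 8. Between (+)-Nutlin and DMSO, 0 of the 2 member regions and 0.0345% of all 2901 had a peak in every (+)-Nutlin list alone. Doxorubicin and (-)-Nutlin differed by 0.67 sites at Trp53 and -0.67 sites at Cdkn2a, each with an exact permutation p of 0.7 and with paired 95% intervals from -3.13 to 4.46 and from -3.54 to 2.2. Of 17070 regions, 2.61% were called in all 3 tumours with doxorubicin and in none with (-)-Nutlin, and 0.211% the other way round. None of these were among the 8 member regions (0 of 8).

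**Figure D2:**
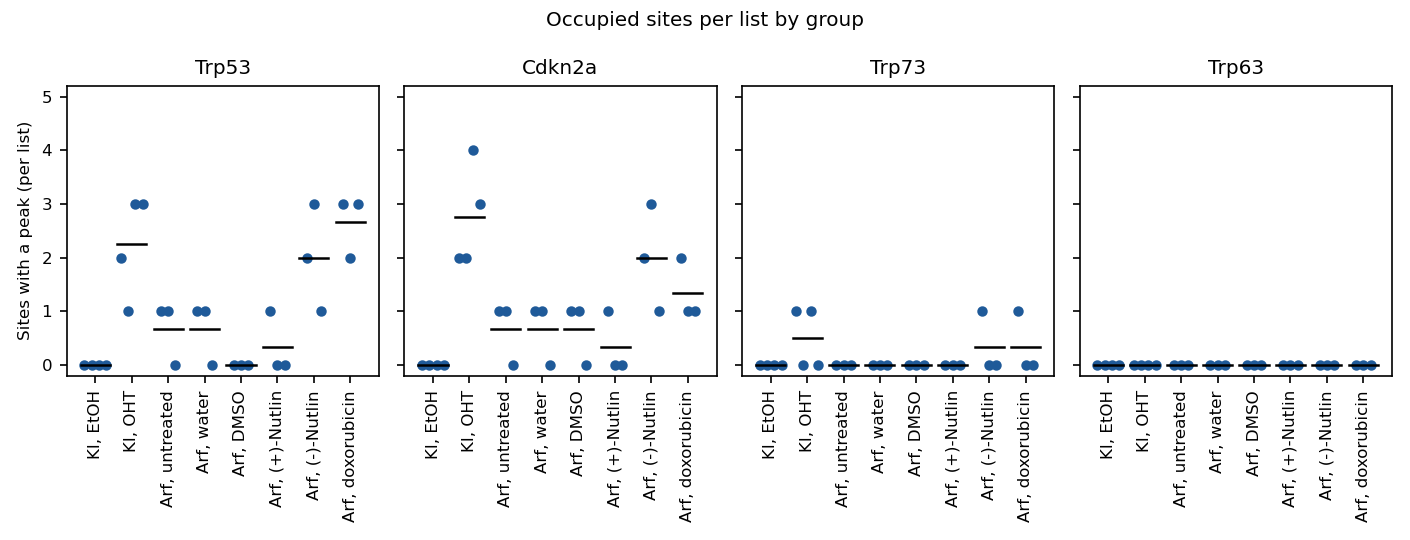
Number of sites with a peak per list (y axis) in each group (x axis) at the 4 windows. Points are lists and horizontal lines are group means. At Trp53 and Cdkn2a all 4 OHT lists lie above the EtOH lists, which are at 0, and at Trp63 every list is at 0.

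The Cdkn2a window held the most sites, 5. Of these, 4 had peaks in activated lists alone, and site 4 in activated and other lists. They lay on chromosome 4 from 88910268 to 88911064 (Cdkn2a site 1), from 88928045 to 88928465 (site 2), from 88940413 to 88940872 (site 3), from 88953584 to 88954779 (site 4) and from 88956643 to 88957225 (site 5). Gaps of 17.0, 11.9, 12.7 and 1.86 kb separated them. Site 4 was called in 13 lists, 6 of them OHT, doxorubicin or (-)-Nutlin lists and 7 of them others. Site 5 was called in 7 lists, sites 1 and 3 in 3 lists each and site 2 in 2 lists, all after OHT, doxorubicin or (-)-Nutlin. Just 0.820% of consecutive windows of this length along the genome held 5 or more sites, and 2.14% of windows of the length used for Trp53 held 3 or more.

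**Figure D3:**
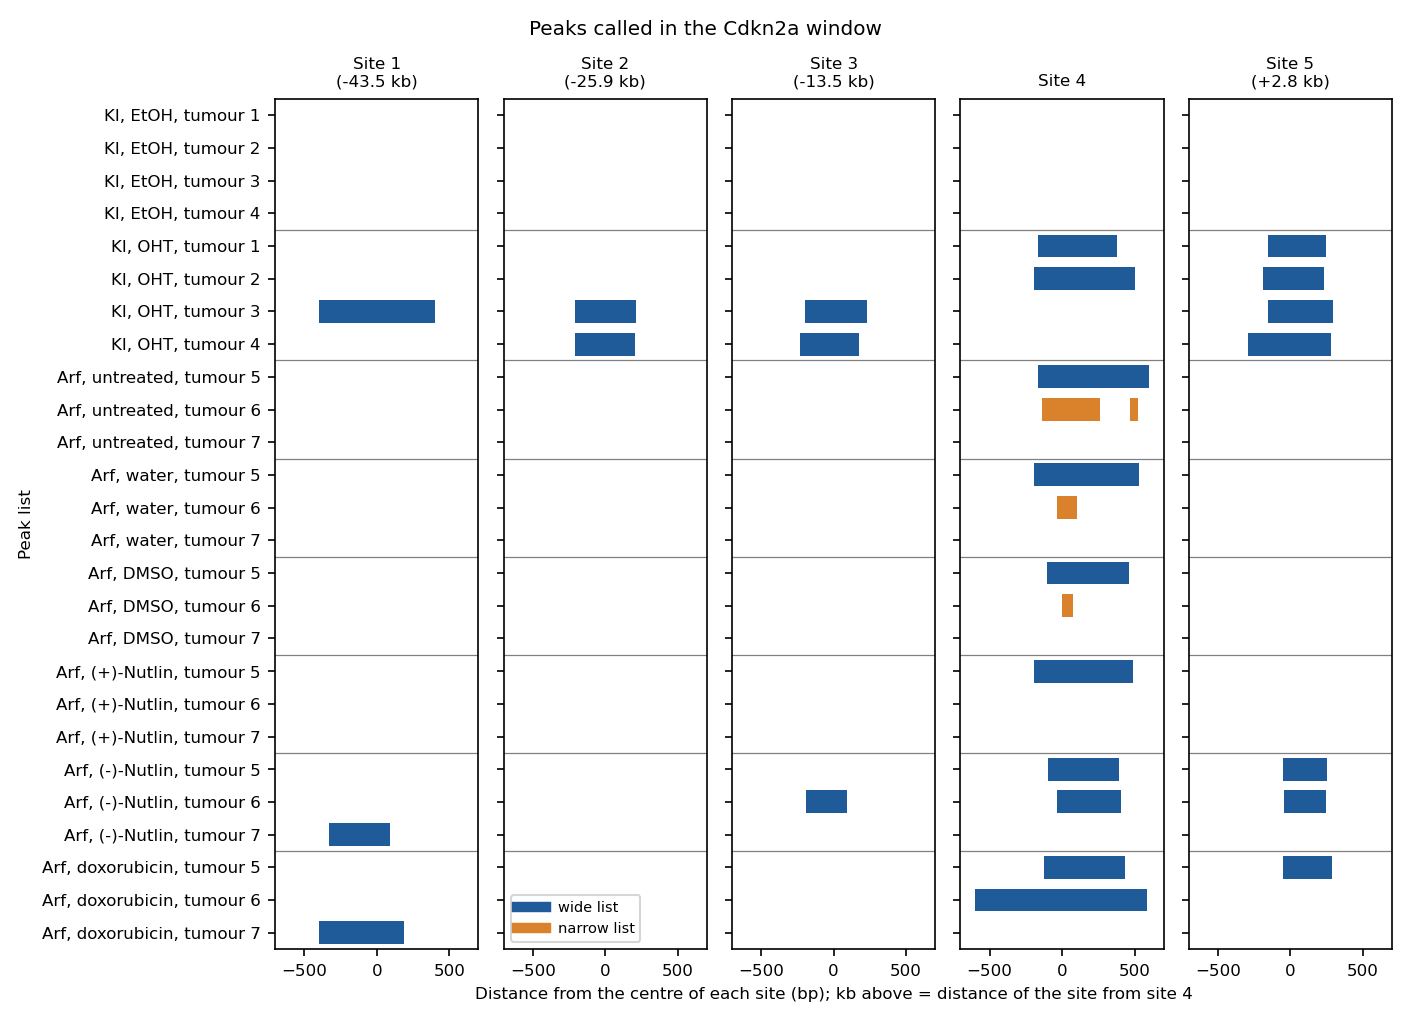
Peaks called at the 5 sites of the Cdkn2a window, each panel to scale as distance in bp from the centre of its site (x axis), with 1 row per list (y axis) and colour for the kind of list. Site 4 has peaks in all 6 lists of tumour 5 and 5 lists of tumour 6, and in no list of tumour 7.

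Cdkn2a site 4 was present in Arf tumours before activation, but not in all of them. In tumour 5 its peak was 765 bp wide in untreated cells, 721 bp with water, 566 bp with DMSO, 678 bp with (+)-Nutlin, 490 bp with (-)-Nutlin and 556 bp with doxorubicin. In tumour 6 it was called as peaks of 402 and 53 bp in untreated cells, of 140 bp with water, of 77 bp with DMSO, of 439 bp with (-)-Nutlin and of 1182 bp with doxorubicin, and was not called with (+)-Nutlin. In tumour 7 none of the 6 lists had a peak there, and the state of the locus in that tumour was not examined. Of 1266 regions with a peak in all 6 lists of tumour 5, 1 had no peak in any list of tumour 7, which is 0.0790%, and that region was Cdkn2a site 4. Of 585 regions with a peak in at least 11 of the 12 lists of tumours 5 and 6, it was likewise the single one without a peak in tumour 7, or 0.171%. These counts were made after the values were seen and carry no test.

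KI tumours also differed at Cdkn2a site 4. After OHT its peaks were 543 bp wide in tumour 1 and 696 bp in tumour 2. None was called in tumours 3 and 4, whose OHT lists were the longer ones with 10084 and 9738 peaks. Whether list length had a part here was not tested. Of 2121 regions with a peak in the OHT lists of tumours 1 and 2, 7.97% had none in those of tumours 3 and 4. The reverse pattern was seen at Cdkn2a sites 2 and 3, with peaks of 421 and 425 bp in tumour 3 and of 418 and 403 bp in tumour 4 and none in tumours 1 and 2. That pattern is common, at 53.8% of the 7926 regions with a peak in the OHT lists of tumours 3 and 4. This share and the 7.97% were chosen after the values were seen and carry no test. Site 2 was called in these 2 KI lists alone, and 9.71% of all sites had peaks in KI lists only. Site 3 was also called after (-)-Nutlin in tumour 6, with 282 bp. Cdkn2a site 1 was called after OHT in tumour 3 with 794 bp, and in tumour 7 after (-)-Nutlin with 420 bp and after doxorubicin with 586 bp. The 3 lists with site 1 were thus among those without site 4.

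Cdkn2a site 5, by contrast, was called in all 4 OHT lists. Its peaks were 403, 420, 443 and 569 bp wide in tumours 1, 2, 3 and 4, and no EtOH list had one. In Arf tumours it appeared after (-)-Nutlin in tumours 5 and 6, with 303 and 291 bp, and after doxorubicin in tumour 5, with 343 bp. Those 3 peaks were among the narrowest of their lists, at the percentiles 10.9, 5.72 and 10.7 of width, whereas the OHT peaks stood at 38.2, 37.6, 38.9 and 76.4. Its adjusted p was 0.307 for OHT against EtOH and 0.0512 for activated against other Arf lists, by Fisher's exact test over all regions. Exchanging labels within tumours, which calls 45.1% of all regions, brought the second value to 0.0493 and so turned the call.

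**Figure D4:**
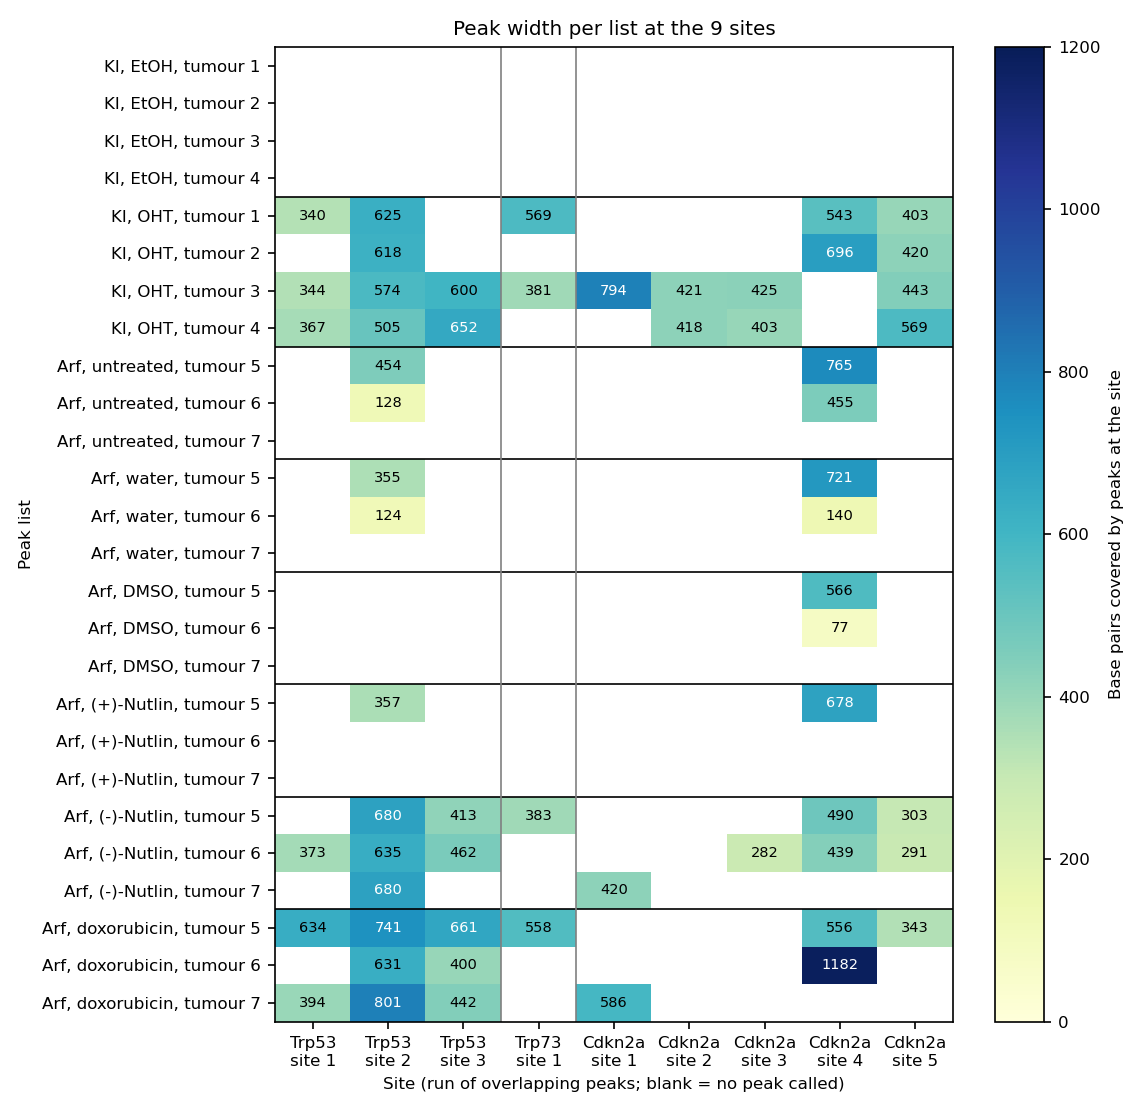
Base pairs covered by peaks (numbers and colour) at each of the 9 sites (x axis) in each of the 26 lists (y axis). Blank cells mark no called peak. EtOH lists are blank throughout, and Cdkn2a site 4 is filled in tumours 5 and 6 under most treatments and blank in tumour 7.

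Over the whole Cdkn2a window, OHT lists held 2, 2, 4 and 3 sites in tumours 1, 2, 3 and 4 and EtOH lists 0 in each. The mean of 2.75 ± 0.96 sites (SD, n = 4) against 0 gave p = 0.0286 by exact permutation and 0.125 within tumours, the least that either test can give. The paired 95% interval ran from 1.23 to 4.27 sites, and 15.8% of consecutive windows of this length with a site passed the same unadjusted test. Doxorubicin lists held 2, 1 and 1 sites and water lists 1, 1 and 0, a difference of 0.67 sites with an exact permutation p of 0.6. (-)-Nutlin lists held 2, 3 and 1 sites and DMSO lists 1, 1 and 0, a difference of 1.33 with an exact permutation p of 0.3. These Arf groups overlapped. Activated Arf lists together held 1.67 ± 0.82 sites (SD, n = 6) and the other Arf lists 0.58 ± 0.51 (SD, n = 12), with an exact permutation p of 0.00700, or 0.00119 within tumours. Of consecutive windows of this length with a site in these Arf lists, 64.5% passed this test. The exact p became 0.0505 without tumour 5, 0.114 when each list was limited to its widest peaks and 0.321 among peaks of at least 457 bp, the median of all peaks.

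In bp, widths at Trp53 and Cdkn2a differed in opposite directions within tumour 5, where every list was of the wide kind but median widths differed. At Trp53 site 2 the peak after doxorubicin was 2.09 times as wide as with water. That after (-)-Nutlin was 1.90 times as wide as with (+)-Nutlin, while DMSO had none. The water and (+)-Nutlin peaks, of 355 and 357 bp, had the smallest width of their lists, so both ratios rest on floor values. Of 1649 regions with a peak in the water, doxorubicin and both Nutlin lists of tumour 5, 74.7% were wider in both pairs. Both ratios were at least as high as at Trp53 site 2 in 4.12%. At Cdkn2a site 4 the doxorubicin peak was 0.77 times as wide as the water peak. The (-)-Nutlin peak was 0.87 times as wide as the DMSO peak and 0.72 times as wide as the (+)-Nutlin peak. The median width was 505 bp in the DMSO list and 432 bp in the (-)-Nutlin list. By width percentile within its list, the site 4 peak stood higher with (-)-Nutlin, at 62.7, than with DMSO, at 59.0. It stood at 74.5 with water, 60.7 with doxorubicin and 74.9 with (+)-Nutlin. Of the 1266 regions with a peak in all 6 lists of tumour 5, 9.64% were narrower under both doxorubicin and (-)-Nutlin than under the matching solvent. This share, the 74.7% and the 4.12% were chosen after the values were seen and carry no test. Each value is from 1 list, so no spread can be given. Tumour 6 does not allow the comparison, since its solvent lists are narrow. The plot of widths in tumour 5 shows the 2 sites crossing between unactivated and activated cells.

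**Figure D5:**
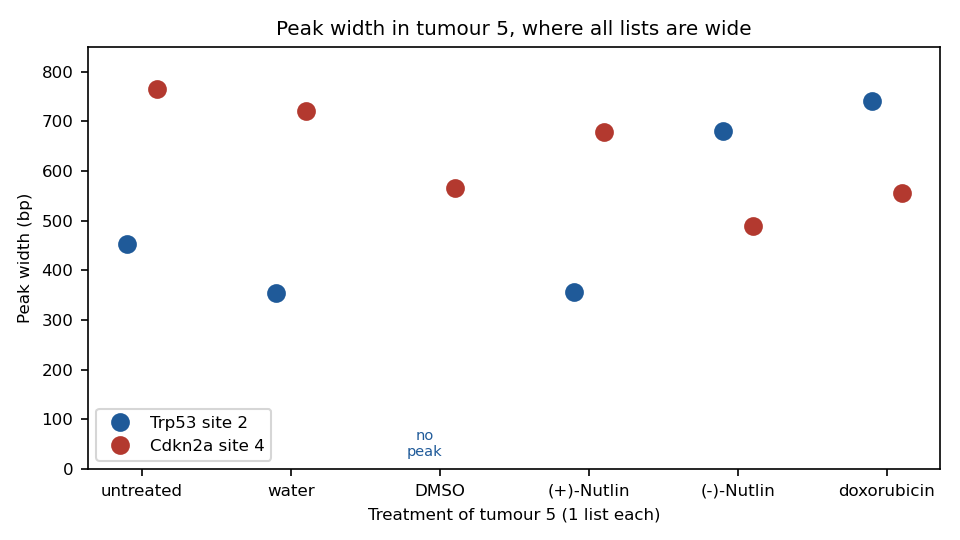
Width in bp (y axis) of the peak at Trp53 site 2 and Cdkn2a site 4 in tumour 5 under each treatment (x axis), 1 list each and no error bars. The Trp53 peak is widest with doxorubicin, at 741 bp, and the Cdkn2a peak in untreated cells, at 765 bp.

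At Trp73, 1 site was called, on chromosome 4 from 153479661 to 153480283. Its peaks were 569 and 381 bp wide after OHT in tumours 1 and 3, 383 bp after (-)-Nutlin in tumour 5 and 558 bp after doxorubicin in tumour 5. No EtOH, untreated, solvent or (+)-Nutlin list had a peak in the window, and no list of tumours 2, 4, 6 or 7. OHT lists thus held 0.50 ± 0.58 sites (SD, n = 4) against 0 in EtOH lists, with an exact permutation p of 0.429. In activated against other Arf lists the means were 0.33 ± 0.52 (SD, n = 6) and 0 (n = 12), with an exact permutation p of 0.0980. For comparison, 70.3% of windows of this length with a site passed that test in the Arf lists and 20.9% passed the OHT test. The shortest OHT list with this site held 4102 peaks, and the OHT list of tumour 4, which lacked it, held 9738. Whether list length had a part in these calls was not tested.

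At Trp63, no peak was called in any of the 26 lists. The window of 250 kb was the longest, and 47.9% of consecutive windows of its length along the genome had no site either, so an empty window of this size was common. Among windows of this length that held a site, 28.4% passed the OHT test and 78.3% that of activated against other Arf lists. The nearest sites lay 233 kb before and 48.8 kb after the window, each with a peak in 2 lists. For Trp73, 62.1% of windows of its length were empty, and 37.9% held at least 1 site.

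Ordered by the number of the 26 lists with any peak in the window, Cdkn2a came first with 17, followed by Trp53 with 15, Trp73 with 4 and Trp63 with 0. Trp53 and Cdkn2a were both called in each of the 10 activated lists, although at Cdkn2a through different sites in different tumours. The share of other windows of these lengths with a peak in all 10 was not counted. Among the 16 other lists, Trp53 had a peak in 5 and Cdkn2a in 7, and all of these were lists of tumours 5 and 6. In KI tumours none of the 4 loci had a peak without OHT. Other genes lie near the members. In RefSeq order on GRCm38 the nearest protein-coding genes are Wrap53 and Atp1b2 beside Trp53, Mtap and Cdkn2b beside Cdkn2a, and Ccdc27 and Wrap73 beside Trp73, and the sites were not assigned to any of them.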

How the data were processed

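The 26 peak lists hold, per the files themselves, chromosome, start and end of each peak as the authors deposited them, with no score, height or other value. BWA 0.6.2, SAMtools and the build mm9 are named in the submitters' processing notes. Not given in the sources used here are which program called the peaks, at what threshold and whether the 7 inputs entered. The inputs were not analysed here. Depth is unknown. Starts were converted to count from 1.

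Groups and tumour numbers come from the sample titles. Lists with the same number are cells of the same tumour and so pair across groups. As a check, deviations of region calls from group means correlated at 0.158 on average within and -0.0745 between Arf tumours, and at 0.0142 and -0.00477 for KI tumours.

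Peaks of all lists were merged at an overlap of 1 bp, and occupied sites per window were compared by two-sided exact permutation tests over lists. The 28 such tests (7 comparisons in 4 windows) are unadjusted. Paired 95% intervals assume normal differences. Regions merged within each comparison were tested with Fisher's exact test, adjusted by Benjamini-Hochberg over all regions at 0.05. Shares of the genome come from consecutive windows of equal length up to the last peak of each chromosome, gaps included. Sites in 3 or more lists are named, and in the Trp53 and Cdkn2a windows every site. Members, windows and rules were chosen with earlier results of these data known. Code was run in Python 3.11.15 with NumPy 2.4.6 and SciPy 1.17.1 and checked on simulated lists. There, 200 gained regions were given a peak in every list of 1 group and none of the other, and 100% were recovered with that pattern. The simulation fixes this outcome, so it checks the code and not the power of the tests. P-values measure the spread between these lists, several of which come from 1 tumour in the Arf groups. Alternatives are given in the closing section.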

Additional observations from a re-analysis of the deposited data

How the results depend on the processing

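Of 404 combinations of a result with an alternative, 340 concern window differences, of which 323 kept their side of the threshold. In 300 of these the sign was kept or the difference was 0 in both, and in 23 it went to or from 0. Of the 64 counts of called regions, 59 stayed within 1.5 times. Neither tally measures robustness. Comparisons of 3 against 3 lists cannot give an exact permutation p under 0.1, and every Trp63 difference was 0. Region counts outside activated against other Arf lists were 0 under every setting. The 4 counts that fell and the 1 that rose all came from that comparison. With labels exchanged within tumours (the replicate block), OHT against EtOH gave the same differences of 2.25 sites at Trp53 and 2.75 at Cdkn2a at an exact p of 0.125, which is the smallest possible. The block also gave 2 called regions in place of 1 for activated against other Arf lists, Cdkn2a site 5 joining Trp53 site 3, and changed no other call. Leaving out 1 KI tumour left 3 against 3 lists, which cannot pass, with differences of 2.00 to 2.67 sites at Trp53 and 2.33 to 3.00 at Cdkn2a. For activated against other Arf lists at Cdkn2a, the difference fell to 0.33 sites among peaks of at least the median width and to 0.42 with lists limited to their widest peaks, and was 1.00 to 1.13 with 1 tumour left out. At Trp73 a window widened by 10 kb took in a further site and gave 0.50 sites at an exact permutation p of 0.0245. The called regions of the Arf comparison numbered 0 with peaks within 500 bp joined, 0 with lists limited to their widest peaks and 0 to 1 with 1 tumour left out. Among peaks of at least the median width the count stayed at 1, but the region called was Trp53 site 2 in place of Trp53 site 3. At Cdkn2a, (+)-Nutlin against DMSO turned to a positive difference of 11.7 bp when covered base pairs were counted, and doxorubicin against (-)-Nutlin turned to 147 bp by covered base pairs and to 0.67 sites among peaks of at least the median width. Without depths or scores, an uncalled site cannot be given a limit.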

Other observations

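Sites just outside the windows were recorded for context. Beside Trp53, the next site towards higher coordinates lay 25.9 kb from the window, on chromosome 11 (69445875 to 69446564), and had a peak in 15 lists, as many as Trp53 site 2. Towards lower coordinates the next lay 147 kb away and had a peak in 1 list. Beside Cdkn2a, a site 9.29 kb below the window, on chromosome 4 (88890088 to 88890713), had a peak in 2 lists, and the next above it lay 56.5 kb away with a peak in 1 list. Beside Trp73, a site 4.77 kb above the window, from 153534775 to 153535178, had a peak in 2 lists, and one 60.5 kb below it had a peak in 7.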
